A study of Mus musculus with 21 samples.

Results

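The genes described here encode the killing machinery of cytotoxic lymphocytes and the receptors and ligand that go with it: the granzymes *Gzma*, *Gzmb*, *Gzmc* and *Gzmk*, the pore former *Prf1*, the granule genes *Nkg7* and *Ctsw*, the death ligand *Fasl*, and the receptors *Klrk1* and *Crtam*. They were chosen by symbol, and all 10 were found among the 55491 genes of both the skin and the lymph node tables. All 10 also passed the filter on low counts in either tissue, and were tested among 19101 genes of skin and 16173 of lymph node. In lesional skin the genes did not move as a block: *Gzma*, *Gzmb* and *Klrk1* were higher than in WT and in non-lesional skin, *Prf1* was lower, and the other 6 did not pass the test. The *Gzma* calls were not stable when single libraries were left out. In lymph node only *Crtam* passed, as a decrease after ultraviolet light in WT mice.

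The study measured RNA in bulk tissue of BALB/c wild-type (WT) mice and of mice carrying an extra *Ifnk* gene (*Ifnk* TG), which encodes the type I interferon IFN-kappa. The transgene was driven in keratinocytes by the K14 promoter, was made on C57BL/6 and was then bred onto BALB/c. The skin groups were untreated mice aged 12 months: WT skin (3 libraries), non-lesional TG skin (NL, 2 libraries) and lesional TG skin (L, 4 libraries). Per the study's methods, NL skin came from the back or from sites comparable to lesions, and lesions lay on the face, back and extremities. The lymph node groups were inguinal nodes, which drain skin, from WT and TG mice that were either untreated or exposed to UVB, with 3 libraries in each of the 4 groups. Exposed mice were shaved and given 250 mJ/cm2 of UVB of 310 nm on 3 days a week for 2 weeks, followed by 2 weeks of observation. The labels give the nodes no age. The labels name no mouse, sex or body site for a library, so body site and lesion cannot be told apart, and the p-values measure only the spread between these samples, which may be technical. Libraries are named below by the sample number in their label.

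Cytotoxic T cells and natural killer (NK) cells kill by releasing granules onto a target cell. Perforin, the product of *Prf1*, opens the target's membrane to granzymes, proteases that cut proteins inside the target, and granzyme B in particular can start apoptosis. *Nkg7* encodes a membrane protein of these granules and *Ctsw* a cathepsin of cytotoxic cells. *Klrk1* encodes NKG2D, a receptor for stress-induced ligands on target cells, *Crtam* an adhesion receptor of activated CD8 T and NK cells, and *Fasl* the ligand that triggers death through Fas. In mouse skin, dendritic epidermal T cells with a gamma-delta receptor also carry NKG2D and cytotoxic granules.

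The promoters of the 4 genes that changed in lesional skin are shown because they are the sequences a reader would search for shared control elements. Each run holds the 250 bases before the RefSeq transcript start, 5′ to 3′ on the gene's strand in GRCm38.p6. The table of promoters matched 8 of the 10 genes, *Ctsw* and *Crtam* being the other two. Capitals mark matches, on either strand, to the T-box letters TCACAC, the Runx letters TGTGGT, the AP-1 letters TGANTCA and the interferon-response letters TTTCNNTTT.
Gzmb, chr14:56262335-56262584, minus strand: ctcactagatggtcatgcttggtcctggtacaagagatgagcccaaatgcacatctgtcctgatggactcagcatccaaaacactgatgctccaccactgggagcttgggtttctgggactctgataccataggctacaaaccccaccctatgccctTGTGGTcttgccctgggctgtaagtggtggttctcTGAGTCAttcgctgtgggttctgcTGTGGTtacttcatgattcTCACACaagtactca
Gzma, chr13:113100982-113101231, minus strand: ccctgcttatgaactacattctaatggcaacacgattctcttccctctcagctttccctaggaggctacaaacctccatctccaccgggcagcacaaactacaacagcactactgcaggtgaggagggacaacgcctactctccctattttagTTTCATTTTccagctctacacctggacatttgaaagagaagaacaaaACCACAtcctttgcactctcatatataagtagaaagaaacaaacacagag
Klrk1, chr6:129623865-129624114, minus strand: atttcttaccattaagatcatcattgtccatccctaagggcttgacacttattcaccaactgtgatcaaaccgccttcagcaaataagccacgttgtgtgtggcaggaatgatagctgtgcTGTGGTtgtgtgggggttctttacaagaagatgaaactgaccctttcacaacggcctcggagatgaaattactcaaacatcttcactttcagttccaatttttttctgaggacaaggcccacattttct
Prf1, chr10:61297586-61297835, plus strand: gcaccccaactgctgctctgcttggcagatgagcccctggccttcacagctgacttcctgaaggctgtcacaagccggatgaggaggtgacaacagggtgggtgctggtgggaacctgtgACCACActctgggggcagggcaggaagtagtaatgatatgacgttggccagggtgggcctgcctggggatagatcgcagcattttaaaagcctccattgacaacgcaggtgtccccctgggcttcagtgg
The *Gzmb* window held a pair of Runx matches beginning 93 and 34 bases before the RefSeq start. It also held an AP-1 match at 58 bases and a T-box match at 15 bases, none overlapping another. The 5′ end of *Gzmb* in the GENCODE M21 annotation is 56262260, downstream of this window, so distances from it would be longer. The *Gzma* window held an interferon-response match at 97 bases and a Runx match at 50 bases. The *Klrk1* and *Prf1* windows each held 1 Runx match, at 129 and 130 bases. Over 32851 promoter windows of the same length, 14.0% held a Runx match, 12.3% a T-box match, 9.37% an interferon-response match and 6.75% an AP-1 match. A match is only a run of letters in this window.

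In the genome (GENCODE M21, GRCm38), *Gzma* (start 113093825) and *Gzmk* (start 113171608) lie near each other on chromosome 13. *Gzmc* (start 56231441) and *Gzmb* (start 56258838) likewise lie near each other on chromosome 14. The others are on chromosomes 1, 6, 7, 9, 10 and 19. Among runs of 50 bases in the transcripts annotated for the 10 genes, 35 of 845 in *Gzmc* (4.14%) also occurred in *Gzmd*, *Gzme* or *Gzmg*. Reads from those positions could be split between genes. None of the other 9 genes shared a run of 50 bases with another gene.

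Total counts were 40499078 to 56511276 per skin library and 27599809 to 36428435 per lymph node library. The deposited *Ifnk* counts, which were not shown to include the transgene, were 0 in the 3 WT skin libraries, 6 and 0 in the NL libraries and 5 to 14 in the L libraries, and 0 in all 12 lymph node libraries. The L libraries also differed from the other skin in tissue content: summed hair shaft genes were 1667 to 5537 CPM (counts scaled to library size) in L and at most 1.3 in WT and NL, and summed skeletal muscle genes were 21.5 to 6204 CPM in L against 21711 to 31041 in WT. With 85 hair shaft, muscle and fat genes left out of the fit, the same 4 genes passed in L against WT and in L against NL. The 85 genes held 1.72% to 3.39% of a library's counts, so leaving them out changes little but the scaling. It is no test of tissue content, whose part in the results was not tested.

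In lesional against WT skin, 3 of the 10 genes rose and 1 fell, by the quasi-likelihood test of edgeR with p-values adjusted by Benjamini-Hochberg over all genes at a threshold of 0.05. Over all genes tested in this comparison, 23.0% were called higher and 20.2% lower. The same 4 genes were those whose L and WT libraries did not overlap, 3 higher and 1 lower, where 26.0% of all genes lay wholly higher and 23.4% wholly lower. The median log2 difference of the 10 was 1.86, or 1.66 with *Gzmk* at its bound, beside 0.06 over all genes. The study itself drew cytotoxic genes from these samples and named *Gzma* and *Gzmb* among the granzymes higher in lesions. It took them to reflect a cytotoxic T cell response. The direction of the genes it drew is therefore not independent evidence. Apart from the granzymes, the study reported higher *Cd8a* RNA and, by tissue staining, more CD8 T cells in lesions. In bulk RNA, fewer cells of a type and less RNA per cell cannot be told apart. Levels below are CPM scaled by TMM within a tissue.

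*Gzmb* (granzyme B) was 7.01, 4.07, 10.8 and 2.77 CPM in L libraries 4, 5, 6 and 7. It was 0.137, 0.142 and 0.148 CPM in WT libraries 8, 9 and 10, and 0.268 and 0 CPM in NL libraries 2 and 3. Each L library was thus above every other skin library, with 154 to 488 counts where the others held at most 14. The log2 difference was 5.41 ± 0.85 (SE) against WT (42.4-fold, adjusted p = 0.00153).

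*Gzma* (granzyme A) was 7.10, 2.20, 4.52 and 1.77 CPM in L libraries 4 to 7, 0.0456, 0 and 0.569 CPM in WT and 0.210 and 0 CPM in NL. The L libraries again lay above all others, and L libraries 5 and 7 were the low pair. The log2 difference from WT was 4.25 ± 1.23 (19.1-fold, adjusted p = 0.0237). This call and its size were not stable. The log2 difference ran from 3.66 to 7.24 over the fits without 1 library, and was highest without WT library 10. The call was lost without WT library 8 (adjusted p = 0.0766), without WT library 9 (0.0578) and with no filter on low counts (0.0511).

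*Gzmc* (granzyme C) was 2.51, 5.25, 1.61 and 5.06 CPM in L, 0.319, 2.07 and 0.371 CPM in WT and 0.917 and 0.0491 CPM in NL. WT library 9 stood above L library 6, so L and WT overlapped, and the log2 difference of 1.97 ± 0.94 did not pass (adjusted p = 0.125). Without WT library 9 it was 3.36 and passed (adjusted p = 0.0409). The L libraries that were high in *Gzmc*, 5 and 7, were those low in *Gzma*.

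*Gzmk* (granzyme K) was near the limit of detection, with 22, 0, 16 and 5 counts in L libraries 4 to 7 and 0 in all 5 WT and NL libraries. Against a floor of 3 counts per library the mean L level was at least 2.96-fold higher than WT, and the gene did not pass (adjusted p = 0.0621). It passed with DESeq2 (adjusted p = 0.0426) and without L library 5, the one at 0 (0.0214).

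*Prf1* (perforin) went the other way. It was 3.10, 1.41, 3.22 and 1.86 CPM in L libraries 4 to 7, 9.37, 6.41 and 9.55 CPM in WT and 8.52 and 16.6 CPM in NL. Every L library was below every WT and NL library. The log2 difference from WT was -1.82 ± 0.35 (3.52-fold lower, adjusted p = 0.00358), and leaving out any 1 library kept it between -1.99 and -1.63 and past the threshold.

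*Klrk1* (NKG2D) was 7.41, 8.71, 8.22 and 3.60 CPM in L, 1.69, 1.31 and 1.43 CPM in WT and 1.91 and 1.32 CPM in NL. L library 7 was the lowest of its group but still above all others. The log2 difference from WT was 2.24 ± 0.34 (4.72-fold, adjusted p = 0.00113), and it passed in each fit that left out 1 library.

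The granule genes *Nkg7* and *Ctsw* overlapped between groups. *Nkg7* was 6.34, 8.31, 7.98 and 2.13 CPM in L and 5.06, 3.63 and 5.07 CPM in WT (log2 difference 0.43 ± 0.42, adjusted p = 0.440). *Ctsw* was 6.01, 9.67, 7.84 and 2.68 CPM in L and 4.65, 2.97 and 4.23 CPM in WT (0.73 ± 0.40, adjusted p = 0.168). In both genes L libraries 4, 5 and 6 were above all WT libraries and L library 7 was below them. Without L library 7 both passed, *Nkg7* at 0.72 (adjusted p = 0.0362) and *Ctsw* at 0.99 (adjusted p = 0.0171).

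*Fasl* (Fas ligand) was 0.237, 0.345, 0.837 and 0.0901 CPM in L, 0.274, 0 and 0.0495 CPM in WT and 0 in both NL libraries. L and WT overlapped (log2 difference 1.76 ± 1.13, adjusted p = 0.244). *Crtam* was 0.437, 0.419, 0.683 and 0.414 CPM in L and 0.479, 0.190 and 0.618 CPM in WT, with overlapping libraries and a log2 difference of 0.19 ± 0.49 (adjusted p = 0.784).

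**Figure D1:**
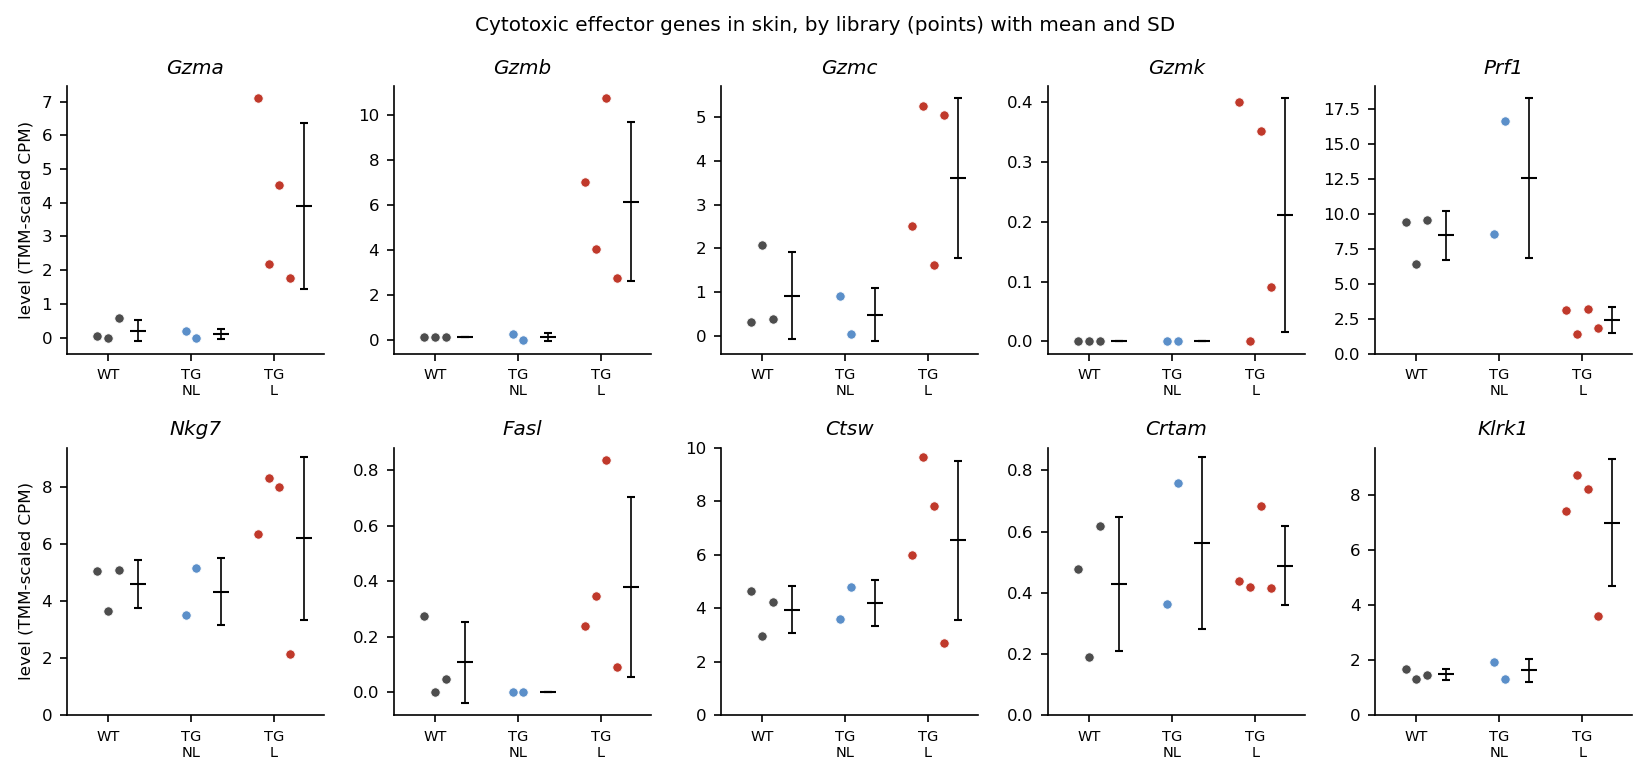
Level of each of the 10 genes in skin, as TMM-scaled CPM on a linear axis of its own from panel to panel, for WT (3 libraries), TG NL (2) and TG L (4), with points for libraries and a bar for the mean ± SD. The L libraries lie above all others for *Gzma*, *Gzmb* and *Klrk1* and below all others for *Prf1*.

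Lesional against non-lesional skin of TG mice gave the same 4 calls, but shares the L libraries with the comparison above and is no second sample of them. Again 3 genes were called higher and 1 lower, beside 13.2% and 11.8% of all genes. In log2 terms *Gzmb* differed by 5.41 ± 1.01 (adjusted p = 0.00714), *Klrk1* by 2.10 ± 0.39 (0.00670), *Gzma* by 5.09 ± 1.56 (0.0455) and *Prf1* by -2.39 ± 0.38 (0.00367, 5.23-fold lower). Without NL library 2, which leaves an NL library at 0 counts of both genes, the fitted differences were 11.13 for *Gzmb* and 10.47 for *Gzma*, and without NL library 3 they were 4.52 and 4.20, so the size of either fold is poorly fixed. The *Gzma* call did not survive the loss of any 1 of the 6 libraries (adjusted p = 0.0507 to 0.212), and that of *Klrk1* was lost without NL library 3 (0.0747). Against NL, 5 genes lay wholly higher and 1 wholly lower, beside 24.7% of all genes in each direction. Besides those called higher, these were *Gzmc* (log2 difference 2.86 ± 1.17, adjusted p = 0.109) and *Fasl*, which was at 0 in NL and at least 5.76-fold higher in L (adjusted p = 0.0589). *Gzmk* was at least 3.22-fold higher (adjusted p = 0.126). Both *Gzmc* (adjusted p = 0.0136) and *Fasl* (0.00538) passed with DESeq2. *Fasl* also passed without L library 7 (0.0487), and *Gzmk* without L library 5 (0.0497). *Nkg7* (0.52 ± 0.48), *Ctsw* (0.64 ± 0.45) and *Crtam* (-0.19 ± 0.54) did not pass.

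**Figure D2:**
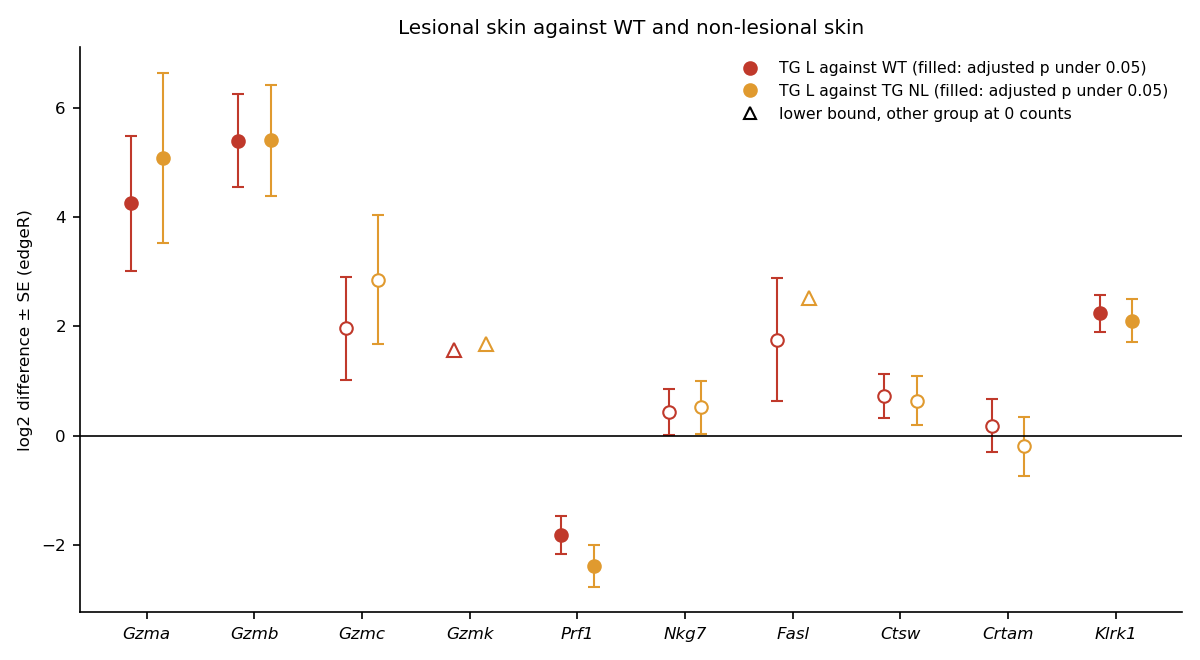
Log2 difference ± SE from edgeR for the 10 genes in L against WT and in L against NL skin, with filled points past an adjusted p of 0.05 and triangles for lower bounds where the other group held 0 counts. *Gzma*, *Gzmb* and *Klrk1* are filled above 0 and *Prf1* is filled below 0 in both comparisons.

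Non-lesional TG skin was also set against WT skin. With 2 NL libraries and no mouse or body site in the labels, this cannot isolate an effect of the transgene alone. None of the 10 passed in edgeR, 0 had an unadjusted p under 0.05 and DESeq2 called 0, where the test called 0 (0%) of all genes. Of all genes 1465 had an unadjusted p under 0.05 and DESeq2 called 80. In no gene of the 10 did NL and WT lie apart, beside 35.0% of all genes. *Prf1* was 12.6 ± 5.71 CPM in NL (SD, n = 2) and 8.44 ± 1.76 in WT (n = 3), a log2 difference of 0.57 ± 0.41 (adjusted p = 0.755). The differences of *Gzma* (-0.83 ± 1.56) and *Gzmb* (-0.0016 ± 1.93) had wide errors, since NL held 2 libraries and 1 of them had 0 counts of both. *Gzmc* (-0.89 ± 1.14), *Nkg7* (-0.09 ± 0.50), *Ctsw* (0.09 ± 0.47), *Crtam* (0.38 ± 0.57) and *Klrk1* (0.14 ± 0.38) also did not pass. *Fasl* was at 0 in NL and at 0 to 0.274 CPM in WT (adjusted p = 0.679), and *Gzmk* was at 0 in both groups.

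Per length, the order of the genes also differed between skin groups. In WT skin *Nkg7* (5.02 ± 0.91 CPM per kilobase of merged exons, SD, n = 3), *Prf1* (3.27 ± 0.68) and *Ctsw* (2.09 ± 0.46) stood first, with *Gzmb* at 0.0993 ± 0.0040. In lesional skin *Nkg7* was still first (6.77 ± 3.11, n = 4), followed by *Gzmb* (4.28 ± 2.47), *Gzmc* (4.04 ± 2.04), *Gzma* (3.87 ± 2.44) and *Ctsw* (3.47 ± 1.58), which did not differ beyond their spread. *Klrk1* (0.972 ± 0.323) and *Prf1* (0.926 ± 0.349) came next in L, and *Fasl*, *Gzmk* and *Crtam* were below 0.2 on average.

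Counts were also set against the genes of the CD3 complex (*Cd3d*, *Cd3e*, *Cd3g*, *Cd247*), carried by all T cells, as a description with no test. The 4 CD3 genes did not pass in L against WT. Per 100 CD3 counts, *Prf1* was 22.8, 24.3 and 25.8 in WT libraries 8, 9 and 10, 25.3 and 32.9 in NL, and 8.44, 3.67, 9.61 and 9.33 in L libraries 4 to 7. *Gzmb* was 0.333, 0.539 and 0.401 in WT, 0.794 and 0 in NL and 19.1, 10.6, 32.1 and 13.9 in L. The means of *Gzma* were 0.549 in WT, 0.312 in NL and 11.9 in L, and those of *Klrk1* were 4.31, 4.15 and 21.4. On this ratio too the L libraries lay apart from the other skin in all 4 genes. In the 12 lymph node libraries *Prf1* was 5.40 to 8.58 and *Gzmb* 0.187 to 0.8294 per 100 CD3 counts, so that *Prf1* in L skin (3.67 to 9.61) spanned the lymph node range and *Gzmb* in L skin (10.6 to 32.1) lay above it. The 2 tissues were sequenced and tabulated separately, so these values are set side by side without a test.

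**Figure D3:**
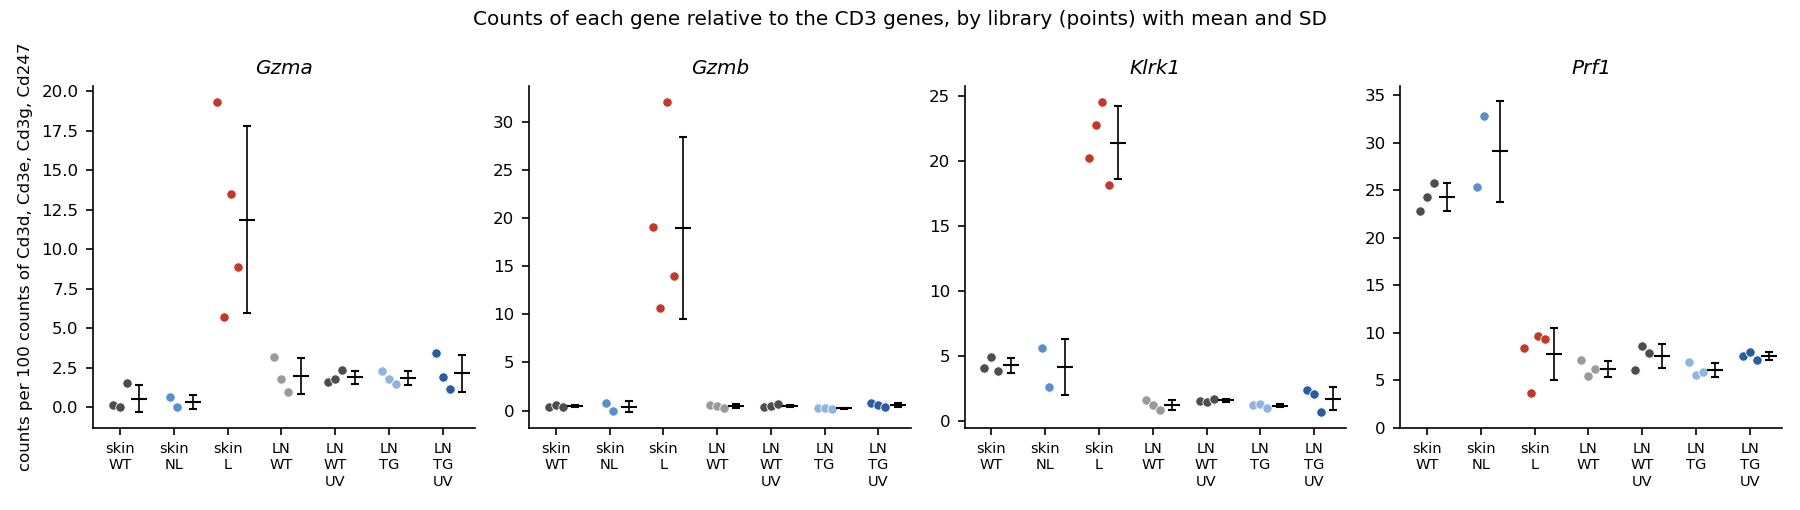
Counts of *Gzma*, *Gzmb*, *Klrk1* and *Prf1* per 100 counts of the 4 CD3 genes in each library of skin and lymph node (LN), with points for libraries and bars for the mean ± SD. L skin averages 7.76 for *Prf1* beside 24.3 in WT skin, and 19.0 for *Gzmb* beside 0.424.

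Markers of other cell types also differed between skin groups, and their part in the results was not tested. In L against WT, both CD8 genes rose, *Cd8a* by a log2 difference of 4.85 ± 1.11 (adjusted p = 0.00899) and *Cd8b1* by 5.27 ± 1.12 (0.00649). Their summed level was 1.33 to 18.7 CPM in L and 0.251 to 0.569 in WT. It was lowest in L library 7, which also had the lowest *Gzma*, *Gzmb* and *Klrk1* of the L group. The same library had 5.06 CPM of *Gzmc* and the highest *Ncr1*, a gene of the NK list, of the L group (1.80 CPM). Its *Gzma* (1.77 CPM) and *Gzmb* (2.77 CPM) were still above all WT libraries. In L against NL neither CD8 gene passed (*Cd8a* 3.63 ± 1.20, adjusted p = 0.0592, and *Cd8b1* 3.58 ± 1.16, 0.0545). The summed level was 1.68 CPM in NL library 2 and 1.33 in L library 7, so the groups overlapped. *Gzmb* and *Klrk1* lay wholly higher in L than in NL, and the part of the CD8 genes in this was not tested. Both CD4 genes rose, and 3 of 7 T cell genes rose (*Cd2*, *Lck* and *Cd28*), while the summed T cell list overlapped (32.0 to 62.5 CPM in L, 33.7 to 48.8 in WT). Of 7 NK and innate lymphoid genes 5 were tested and 2 rose, *Klrc1* and *Klri2*. Their summed level was 4.47 to 8.07 CPM in L and 1.28 to 1.64 in WT, with *Klra8* at 0 in all skin and all lymph node libraries. Of 7 mast cell genes 1 rose (*Fcer1a*), and their sums overlapped.

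The lists of other cells gave further differences in L against WT. Of 6 neutrophil genes 5 were tested and 3 rose (*S100a8*, *S100a9* and *Cxcr2*). Their summed level was 60.7 to 593 CPM in L (225 ± 248, SD, n = 4) and 35.9 to 43.6 in WT, so L varied widely. Which cells made these transcripts was not tested. Of 5 plasmacytoid dendritic cell genes *Siglech* fell (log2 difference -1.83 ± 0.57, adjusted p = 0.0299) while *Ccr9* and *Klk1* rose. Their summed level was 6.07 to 46.8 CPM in L and 109 to 138 in WT, and includes *Cox6a2*, which is also a muscle gene. Of 6 keratinocyte genes 2 rose, of 7 skeletal muscle genes 2 fell, of 5 adipocyte genes 2 fell, of 5 lymph node stroma genes 1 rose, and none of the 5 B cell, 5 macrophage and 5 erythroid genes passed.

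Of 5 gamma-delta T cell genes, *Trdc* (log2 difference -1.17 ± 0.28, adjusted p = 0.00901) and *Tcrg-C1* (-1.63 ± 0.26, 0.00153) fell with *Prf1*, and *Sox13* rose. The summed list was 19.96 to 28.0 CPM in L and 28.6 to 33.8 in WT. *Trdv4* and *Trgv5*, the variable segments of dendritic epidermal T cells, were looked at after the values were seen and have no test. *Trdv4* had 18, 11, 14 and 21 counts in L libraries 4 to 7, 164 and 134 in NL and 195, 103 and 171 in WT. *Trgv5* had 22, 2, 2 and 0 counts in L, 52 and 90 in NL and 63, 37 and 36 in WT. All L libraries were below all others in both segments, as in *Prf1*, and their part in the *Prf1* result was not tested.

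The other genes of the pathway were described by fixed lists. Of 6 other granzymes only *Gzmm* was expressed enough to test, and it fell (log2 difference -1.25 ± 0.44, adjusted p = 0.0451). *Gzmd*, *Gzme*, *Gzmf*, *Gzmg* and *Gzmn* held 0 counts in WT and averaged at most 0.0587 CPM in L (*Gzmf*). Of 8 genes of granule packaging and exocytosis, 3 rose and 1 fell, beside the 23.0% and 20.2% of all genes called in this comparison, which hold for the lists that follow too. *Ctsc*, the peptidase that activates granzymes, rose by 1.02 ± 0.24 (adjusted p = 0.0101), *Stxbp2* by 0.85 ± 0.08 (0.000195) and *Stx11*, its syntaxin partner in granule release, by 1.48 ± 0.31 (0.00496), while *Lamp1* fell by 0.43 (0.0180). Of 4 genes listed as granzyme inhibitors, *Serpinb6a* fell by 1.98 (SE 0.29, adjusted p = 0.00106), though that it inhibits a granzyme was not shown here. *Serpinb9*, the inhibitor of granzyme B, did not pass (-0.18 ± 0.24).

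Among genes of the death receptor list, *Bid* rose by 0.75 ± 0.20 (adjusted p = 0.0164). *Cflar*, an inhibitor of death receptor signalling, fell by 0.30 (0.0366), and *Fas* did not pass (-0.11 ± 0.21). Which cells these changes arose in was not tested. Of 12 partners of NKG2D and CRTAM, 8 were in the table by symbol or identifier, 5 were tested, and 1 rose. That was *Cadm1*, the ligand of CRTAM, by 0.93 ± 0.12 (adjusted p = 0.000523). *Hcst*, the signalling adaptor of NKG2D (0.76 ± 0.45), and the NKG2D ligands *H60c* (0.68 ± 0.30) and *Ulbp1* (0.37 ± 0.24) did not pass. The partners not found by symbol or identifier, NKG2D ligands among them, could not be measured here. Of 10 transcription factors of cytotoxic cells 9 were tested, 5 rose and 1 fell. *Prdm1* rose by 1.59 ± 0.18 (0.000381), *Id2* by 1.22 ± 0.15 (0.000498), *Tcf7* by 1.80 ± 0.24 (0.000736) and *Nfil3* by 1.29 ± 0.25 (0.00410). *Runx3* also rose and *Zeb2* fell, named here after their values were seen, while *Tbx21* (1.00 ± 0.66) and *Eomes* (1.78 ± 0.86) did not pass. Many of these genes are also expressed by keratinocytes and other skin cells.

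Against NL skin, where 13.2% of all genes were called higher and 11.8% lower, the lists of packaging genes, inhibitors, partners and transcription factors gave 3 higher and 1 lower of 8 packaging genes (*Ctsc*, *Stx11* and *Stxbp2* higher, *Unc13d* lower), 2 lower of 4 inhibitors (*Serpinb9b*, *Serpinb6a*), 0 of the 5 tested partners and 4 higher of 9 transcription factors (*Nfil3*, *Id2*, *Tcf7*, *Prdm1*). *Gzmm* did not pass (-1.05). In NL against WT no gene of these lists passed.

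Across the 9 skin libraries, which share their groups, the genes fell into sets. *Gzma* and *Gzmb* had a Pearson correlation of 0.93 on log2 CPM, *Gzmb* and *Klrk1* of 0.95, and *Nkg7* and *Ctsw* of 0.95. *Prf1* ran opposite to *Gzmc* (-0.92), *Gzmb* (-0.88) and *Klrk1* (-0.85). The genes most alike to the 10 by mean correlation were *Lrrc4*, *Socs1*, *Atp11b*, *Psme2b*, *Psme2*, *Rab5c*, *Rbms1* and *Usp18*, with means of 0.57 to 0.58 that mixed values from -0.79 to 0.98, so no gene followed all 10. In the 12 lymph node libraries the closest pairs were *Ctsw* and *Klrk1* (0.78) and *Gzma* and *Klrk1* (0.76). There the most alike were *Cd200r4*, *Klrc1*, *Klrc2*, *Trp53bp1*, *Muc20*, *Evi2*, *Tmem81* and *Klri2* (means 0.43 to 0.48).

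In lymph node all 10 genes were detected in every library. Per length, *Nkg7* was highest in untreated WT nodes (78.1 ± 5.07 CPM per kilobase, SD, n = 3), followed by *Ctsw* (40.1 ± 4.59), *Prf1* (29.5 ± 3.25) and *Gzma* (24.1 ± 13.4). *Prf1* and *Gzma* overlapped in their spread. *Crtam* (4.48 ± 0.17) and *Gzmb* (3.82 ± 1.70) followed, and *Gzmk* was lowest (0.402 ± 0.386). *Gzma* varied most among the abundant genes, from 11.6 to 38.4 CPM among untreated WT libraries, and WT library 1, highest in *Gzma*, was also highest in *Klrk1* and *Ncr1*. The 4 groups share libraries across the comparisons that follow, and each comparison's values stand on their own.

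After UVB in WT mice, *Crtam* was the 1 gene of the 10 that passed, as a decrease, beside 2.06% of all genes called lower. It was 23.9, 22.2 and 22.8 CPM in untreated libraries 1, 2 and 3 and 14.5, 14.5 and 17.5 CPM in UVB libraries 7, 8 and 9, so the groups did not overlap. The log2 difference was -0.57 ± 0.11 (adjusted p = 0.0244). The call was lost without untreated library 3 (adjusted p = 0.107) and without UVB library 8 (0.125), with log2 differences between -0.69 and -0.52 over all 6 libraries left out. *Ctsw* lay wholly higher after UVB (87.6 to 91.2 against 67.1 to 84.4 CPM, log2 difference 0.24 ± 0.12, adjusted p = 0.232). Thus 1 gene lay wholly lower and 1 wholly higher, beside 17.3% and 19.8% of all genes. *Nkg7* (-0.24 ± 0.11, adjusted p = 0.177) and the other 7 genes overlapped and did not pass. Those were *Gzma* (-0.35 ± 0.43), *Gzmb* (-0.18 ± 0.35), *Gzmc* (0.16 ± 0.55), *Gzmk* (0.15 ± 0.57), *Prf1* (-0.0092 ± 0.14), *Fasl* (0.16 ± 0.25) and *Klrk1* (0.09 ± 0.33).

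Tissue content differed between the same WT nodes, and its part in the *Crtam* difference was not tested. Summed erythroid genes were 121 to 261 CPM untreated and 10.8 to 39.5 after UVB, and summed lymph node stroma genes were 79.5 to 97.1 and 23.0 to 58.3. The summed CD8 genes overlapped (609 to 659 and 494 to 616 CPM). The summed T cell list was 2419 to 2528 CPM untreated and 1990 to 2202 after UVB, where *Cd2* fell by 0.35 (adjusted p = 0.0343). Per 100 CD3 counts *Crtam* was 1.74 to 1.99 untreated and 1.40 to 1.69 after UVB, still without overlap. Among the pathway lists, *Ulbp1*, a ligand of NKG2D, rose by 1.20 ± 0.21 (adjusted p = 0.0213) and *Bhlhe40* by 0.61 ± 0.13 (0.0303). *Zeb2* fell by 0.60 (0.0234), *Serpinb6a* by 0.63 (0.0303) and *Fadd* by 0.53 (0.0323). No gene of the lists of other granzymes or granule packaging passed, nor any CD8, CD4, gamma-delta or NK marker.

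After UVB in TG mice none of the 10 genes passed in edgeR, 3 had an unadjusted p under 0.05, and DESeq2 called 0. The test called 0 (0%) of all genes, while 1507 had an unadjusted p under 0.05 and DESeq2 called 137. *Gzmb* was 3.11, 3.26 and 2.10 CPM in untreated TG libraries 4, 5 and 6 and 8.11, 5.92 and 4.74 CPM in UVB libraries 10, 11 and 12. All UVB libraries were above all untreated ones, with a log2 difference of 1.15 ± 0.36 (adjusted p = 0.364). *Nkg7* (61.0 to 66.8 against 75.8 to 92.6 CPM, log2 difference 0.37 ± 0.11, adjusted p = 0.330) and *Prf1* (65.5 to 73.4 against 73.9 to 87.6 CPM, 0.26 ± 0.14, adjusted p = 0.581) also lay wholly higher. These 3 of 10 stand beside 6.23% of all genes that lay wholly higher, and their adjusted p-values did not pass. The summed CD8 genes also lay wholly higher after UVB (652 to 812 against 564 to 577 CPM), with neither gene past the test, and their part was not tested. *Ctsw* was 102 and 103 CPM in UVB libraries 10 and 11 but 71.3 in library 12, against 71.9 to 72.2 untreated. Without library 12 it passed at a log2 difference of 0.49 (adjusted p = 0.0251). The log2 differences of *Gzma* (0.12 ± 0.43), *Gzmc* (0.57 ± 0.56), *Gzmk* (0.62 ± 0.56), *Fasl* (-0.12 ± 0.25), *Klrk1* (0.42 ± 0.33) and *Crtam* (-0.06 ± 0.11) did not pass either.

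Between genotypes, untreated TG and WT nodes did not differ in any of the 10 genes by the test (adjusted p = 1 for each in edgeR, 1 with an unadjusted p under 0.05, 0 with DESeq2), beside 0 (0%) of all genes, of which 549 had an unadjusted p under 0.05 and DESeq2 called 2. The libraries of the 10 genes overlapped throughout, beside 10.5% of all genes that did not. *Gzmb* had the largest log2 difference, -0.95 ± 0.36, at 2.10 to 3.26 CPM in TG and 2.7 to 7.27 in WT. The others were *Gzma* (-0.22 ± 0.43), *Gzmc* (-0.48 ± 0.56), *Gzmk* (-0.14 ± 0.57), *Prf1* (-0.15 ± 0.14), *Nkg7* (-0.16 ± 0.11), *Ctsw* (-0.07 ± 0.12), *Fasl* (-0.01 ± 0.25), *Klrk1* (-0.15 ± 0.33) and *Crtam* (-0.0098 ± 0.11).

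Among UVB-exposed nodes, TG against WT, again none of the 10 passed in edgeR, 2 had an unadjusted p under 0.05, and the test called 0 (0%) of all genes, of which 1131 had an unadjusted p under 0.05 and DESeq2 called 19. *Crtam* was 19.98, 24.5 and 21.3 CPM in TG libraries 10, 11 and 12 against 14.5, 14.5 and 17.5 CPM in WT (log2 difference 0.50 ± 0.11, adjusted p = 0.673). *Nkg7* was 75.8, 92.6 and 79.1 CPM in TG against 56.4, 54.1 and 70.6 CPM in WT (0.45 ± 0.11, adjusted p = 0.673). In both genes all TG libraries lay above all WT ones, 2 of 10 beside 5.39% of all genes. The summed CD8 genes likewise lay wholly higher in TG (652 to 812 CPM) than in WT (494 to 616), with neither gene past the test, and their part was not tested. DESeq2 called 1 of the 10, *Crtam* (adjusted p = 0.0399). The others were *Gzma* (0.26 ± 0.43), *Gzmb* (0.37 ± 0.35), *Gzmc* (-0.07 ± 0.55), *Gzmk* (0.33 ± 0.56), *Prf1* (0.13 ± 0.14), *Ctsw* (0.04 ± 0.12), *Fasl* (-0.28 ± 0.25) and *Klrk1* (0.17 ± 0.33).

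Whether UVB acted differently in the 2 genotypes was tested as an interaction. None of the 10 genes passed in edgeR (lowest adjusted p = 0.848), 3 had an unadjusted p under 0.05 and DESeq2 called 0, where the test called 0 (0%) of all genes, 881 had an unadjusted p under 0.05 and DESeq2 called 8. The interaction estimates of *Gzmb* (1.32 ± 0.50), *Nkg7* (0.61 ± 0.15) and *Crtam* (0.51 ± 0.15) on the log2 scale were those with an unadjusted p under 0.05. Those of *Gzma* (0.47 ± 0.60), *Gzmc* (0.42 ± 0.78), *Gzmk* (0.47 ± 0.80), *Prf1* (0.27 ± 0.20), *Ctsw* (0.11 ± 0.17), *Fasl* (-0.27 ± 0.36) and *Klrk1* (0.32 ± 0.46) were not. The *Crtam* decrease seen in WT was thus not shown to differ from the -0.06 ± 0.11 seen in TG. No gene of the pathway or marker lists passed in these last 4 lymph node comparisons.

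**Figure D4:**
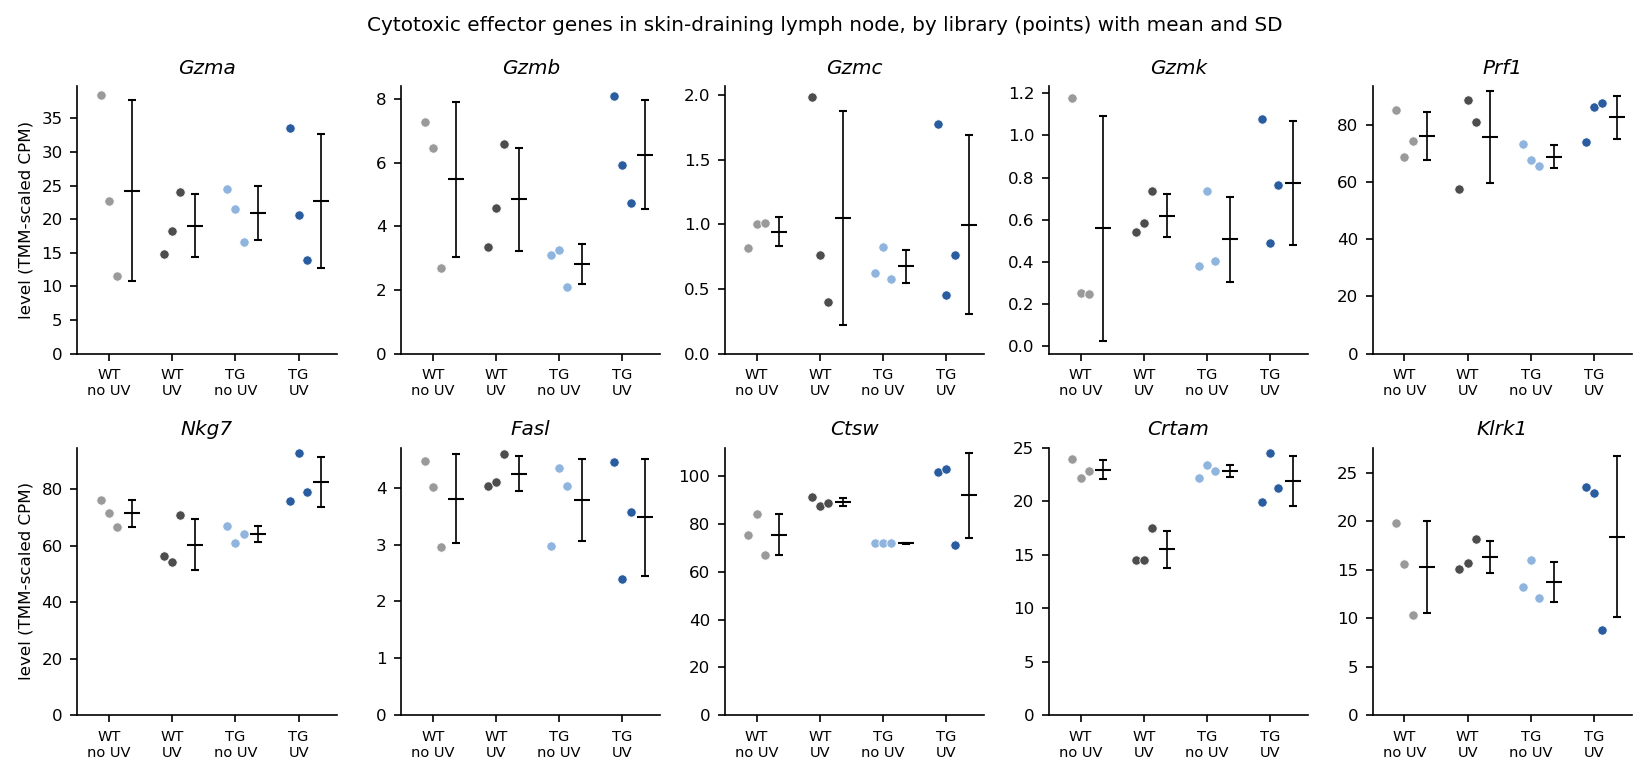
Level of each of the 10 genes in lymph node, as TMM-scaled CPM on linear axes, for WT and TG mice without and with UVB (3 libraries each), with points for libraries and bars for the mean ± SD. *Crtam* in WT drops from between 22.2 and 23.9 CPM to between 14.5 and 17.5 after UVB, and *Gzmb* in TG is 2.10 to 3.26 CPM untreated and 4.74 to 8.11 after UVB.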

How the data were processed

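The samples were 9 skin and 12 lymph node libraries, grouped by their labels. Per the labels and the study's methods, the authors made poly-A libraries, trimmed reads with cutadapt 4.8, checked them with FastQC 0.11.8 and MultiQC 1.20, aligned them to GRCm38 with STAR 2.7.8a and estimated counts per gene with RSEM 1.3.3. The annotation release is not given in the sources used here. The deposited values are expected counts per gene, not normalized, and were rounded to whole numbers before use. Total counts per library (27599809 to 56511276) set the counting error, and no column was left unmapped to a sample.

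Each tissue was fitted separately in R 4.3.3 with edgeR 4.0.16: filterByExpr by group (at least 10 counts, 15 in total), TMM, one robust quasi-likelihood fit over all libraries of the tissue, and Benjamini-Hochberg adjustment over all tested genes at 0.05. The standard error is the log2 difference divided by the square root of F. DESeq2 1.42.0, RLE size factors, no filter, compared groups alone, *Xist* as a covariate, hair shaft, muscle and fat genes left out (skin) and each library left out were the alternatives. Only libraries of the groups compared were left out. The steps were tested on simulated data.

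Floors are 3 counts per library. Levels per length divide CPM by the merged exons of GENCODE M21. Correlations use log2 CPM with a prior count of 2. Promoters are from RefSeq (GRCm38.p6), and protein sequences were not used here. The 10 genes, the pathway lists and the marker lists were chosen with earlier results of these data known. The text names all 10 genes in every comparison, at most the 4 pathway genes with the lowest adjusted p per list and comparison, and per tissue the 8 genes most alike to the 10. Not every gene of the death receptor list is reported here, and no count is given for that list.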

Additional observations from a re-analysis of the deposited data

Results flagged for a closer look

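Among the 4 lesional skin libraries, *Crtam* in L library 6 (31 counts, 0.683 CPM) stood apart from the other three, which held 17 to 24 counts (0.414 to 0.437 CPM). Its gap to the nearest library was 0.916 of the group's whole range, above Dixon's 95% critical value for 4 samples. The other 9 genes of the 10 were not past that value at either end, and chance alone flags about 1 in 20 groups. No gene of the 10 differed between genotypes in its response to UVB by the interaction test.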

How the results depend on the processing

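No paired analysis was possible because the groups compared share no sample numbers in the labels, which count libraries through each tissue. In skin, L against WT gave 3 to 5 calls among the 10 genes and L against NL 3 to 6 over the 6 settings other than leaving out a library (DESeq2, RLE size factors, no filter, compared groups alone, *Xist* as a covariate, and hair shaft, muscle and fat genes left out), beside 4 as reported. *Gzmb*, *Klrk1* and *Prf1* passed in L against WT in all of these and in each fit without 1 library. Leaving out each library gave 3 to 6 calls in L against WT, 2 to 4 in L against NL, 0 to 1 for UVB in WT and 0 to 1 for UVB in TG nodes, and 0 in the other 4 comparisons. DESeq2 called 1 gene, *Crtam*, in TG against WT UVB nodes where edgeR called 0. Among all 19101 genes tested in skin, 8237 were called in L against WT as reported. The 6 settings gave 7356 to 9017 calls there, and the fits without 1 library gave 6243 to 8028. For L against NL the 6 settings gave 3156 to 6200. Over all genes, UVB in WT nodes gave 805 calls as reported, 2002 with DESeq2, 2431 with the 2 groups alone, 373 with *Xist* as a covariate and 0 to 493 without 1 library (0 without UVB library 8, 7 without untreated library 3, 29 without UVB library 9), and L against NL gave 4782 as reported 3156 with the 2 groups alone, and 1470 and 1182 without NL libraries 2 and 3. UVB in TG nodes gave 236 without UVB library 12. Counts of 0 over all genes became 80 in NL against WT, 137 for UVB in TG, 2 and 19 for TG against WT without and with UVB, and 8 for the interaction with DESeq2. Why the tools and settings differ was not tested.

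In genes that passed on neither side, some estimates changed sign. With *Xist* as a covariate, *Crtam* was -0.0037 in L against WT, 0.020 in L against NL and -0.023 in NL against WT, *Ctsw* was -0.048 in NL against WT and -0.051 in TG against WT UVB nodes, and *Gzmc* was 0.010 in the latter. Log2 ranges over the fits without 1 library that held both signs were as follows. In L against WT *Crtam* spanned -0.18 to 0.54. In L against NL *Crtam* spanned -0.64 to 0.44. In NL against WT *Nkg7* spanned -0.42 to 0.17, *Klrk1* -0.16 to 0.34, *Gzma* -6.22 to 2.15, *Gzmb* -5.72 to 0.87, *Prf1* -0.015 to 0.98, *Ctsw* -0.17 to 0.28, *Crtam* -0.27 to 0.82 and *Gzmc* -4.15 to 0.51. In UVB in WT nodes *Gzma* spanned -0.71 to 0.13, *Gzmb* -0.52 to 0.060, *Prf1* -0.14 to 0.16, *Gzmk* -0.23 to 1.28, *Fasl* -0.020 to 0.26, *Klrk1* -0.14 to 0.31 and *Gzmc* -0.71 to 0.52. In UVB in TG nodes *Gzma* spanned -0.28 to 0.36, *Gzmc* -0.13 to 0.90, *Crtam* -0.15 to 0.0062 and *Fasl* -0.33 to 0.080. In TG against WT in untreated nodes *Gzma* spanned -0.55 to 0.28, *Gzmk* -0.52 to 1.01, *Fasl* -0.17 to 0.13, *Crtam* -0.035 to 0.015, *Klrk1* -0.37 to 0.079 and *Ctsw* -0.15 to 0.015. In TG against WT in UVB nodes *Gzmc* spanned -0.75 to 0.80, *Prf1* -0.037 to 0.25, *Gzma* -0.12 to 0.51, *Ctsw* -0.035 to 0.20 and *Klrk1* -0.028 to 0.51. In the interaction *Gzma* spanned -0.016 to 0.82, *Gzmk* -0.67 to 0.86 and *Gzmc* -0.26 to 1.28. Of 531 single-gene values without 1 library, 11 lost and 7 gained a call, and of 410 under the other settings 3 lost and 4 gained one. With 2 to 4 libraries a group, *Gzmk* and *Fasl* at 0 to 38 counts and *Gzma* at 0 to 23 in control skin, differences in these genes are limited by depth and by the number of libraries. Floors cover counting error only.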
